A study of Mus musculus with 4 samples.

Results

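In cells of the mouse ascending aorta, 9 genes of the corticosteroid response and of metal binding were followed: the glucocorticoid receptor gene Nr3c1, the mineralocorticoid receptor gene Nr3c2, the hormone-responsive genes Fkbp5, Tsc22d3, Zbtb16, Sgk1 and Klf9, and the metallothionein genes Mt1 and Mt2. They were picked by name rather than by a measured value, and they are 9 of the 18112 genes that the 3 analysed files have in common. All libraries came from aortas of male mice of the Mef2c-mTmG strain, in which lineage can be tracked, and living single cells were sorted by lineage before droplet capture of transcript 3′ ends. SHF_Baseline holds cells of the second heart field (SHF) without infusion, SHF_AngII holds SHF cells after angiotensin II (AngII) was infused for 3 days, and CNC_AngII holds the cells labelled CNC after the same infusion. The labels do not spell out CNC and give no age, dose, Cre driver or number of mice per library, and the sample labelled CNC_Baseline was not analysed here. With 1 library in each group there was nothing to measure replicate spread from, and no test was made. The intervals given are exact intervals at 95% that cover counting error only, not the spread between mice or between library preparations.

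Glucocorticoids and aldosterone cross the cell membrane and bind receptors that act as transcription factors, and AngII is the hormone that drives aldosterone release from the adrenal gland. Fkbp5, Tsc22d3 (also called GILZ), Zbtb16, Sgk1 and Klf9 are widely used readouts of these receptors, and Fkbp5 encodes a co-chaperone that lowers the affinity of the glucocorticoid receptor for its hormone. Metallothioneins are small cysteine-rich proteins that bind zinc and copper, and their genes respond to metals through the factor MTF1 and also to glucocorticoids and cytokines.

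Mt2 and Mt1 are neighbours on mouse chromosome 8. In the GENCODE M21 annotation of GRCm38, the build also called mm10, Mt2 spans chr8:94172664-94173568 and Mt1 spans chr8:94179082-94180327. Both lie on the + strand with 5513 bases between them. The sequences before their starts are shown because both genes correlated from cell to cell in every class described below. Each is the RefSeq promoter window (GRCm38.p6), 250 bases before to 50 bases after the start used for that window. For both genes this start differs from the GENCODE start given above. Capitals mark each match to the core of a metal response element, searched as TGCACNC or TGCGCNC on both strands.
Mt2, chr8:94172368-94172667, + strand: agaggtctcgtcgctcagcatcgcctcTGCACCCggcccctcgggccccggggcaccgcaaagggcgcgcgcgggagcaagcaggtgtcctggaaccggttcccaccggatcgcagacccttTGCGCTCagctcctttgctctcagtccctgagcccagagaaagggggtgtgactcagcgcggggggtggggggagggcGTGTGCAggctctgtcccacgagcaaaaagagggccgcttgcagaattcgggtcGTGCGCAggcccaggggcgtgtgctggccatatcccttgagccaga
Mt1, chr8:94178839-94179138, + strand: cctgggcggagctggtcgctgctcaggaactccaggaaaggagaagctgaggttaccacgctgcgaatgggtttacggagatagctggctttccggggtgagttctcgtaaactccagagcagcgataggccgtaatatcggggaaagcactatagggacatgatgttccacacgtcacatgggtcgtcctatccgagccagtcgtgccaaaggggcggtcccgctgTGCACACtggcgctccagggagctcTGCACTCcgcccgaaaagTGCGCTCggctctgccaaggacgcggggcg
The Mt2 window held 4 matches and the Mt1 window held 3. Of all 32851 RefSeq promoter windows of this length, 25.7% held at least 1 match, 1.97% held at least 3 and 0.517% held at least 4. A palindromic glucocorticoid response element, searched as AGAACA, any 3 bases and then TGTTCT, which reads the same on both strands, was in neither window. Entries were found for 7 of the 9 genes, and 1 of the 6 windows of Sgk1 was the single one among them that held this palindrome, which 0.00913% of all windows held. It is printed with the palindrome in capitals.
Sgk1, chr10:21993640-21993939, + strand: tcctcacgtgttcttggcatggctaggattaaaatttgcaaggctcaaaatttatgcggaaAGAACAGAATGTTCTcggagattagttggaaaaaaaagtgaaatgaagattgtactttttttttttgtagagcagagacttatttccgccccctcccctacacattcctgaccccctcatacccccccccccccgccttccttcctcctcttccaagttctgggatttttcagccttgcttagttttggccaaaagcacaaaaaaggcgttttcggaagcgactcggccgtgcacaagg
These matches describe letters in the windows and are no evidence of binding.

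Cells were assigned to classes by UMIs (unique molecular identifiers, each standing for 1 captured transcript). Smooth muscle cells had at least 5 UMIs of Myh11 and 0 of Pdgfra, fibroblasts had at least 1 of Pdgfra and at most 2 of Myh11, and macrophages had at least 10 of C1qa, C1qb and Lyz2 together and under 5 of Myh11. SHF_Baseline gave 2259 smooth muscle cells and 3939 fibroblasts among 8374 kept cells, SHF_AngII gave 4649 and 2640 among 9299, and CNC_AngII gave 6385 and 842 among 10194. Macrophages numbered 1764 in CNC_AngII and only 8 and 13 in SHF_Baseline and SHF_AngII, so macrophages are described for CNC_AngII. Between 11.9% and 25.9% of the kept cells fell into no class, and 1 to 8 cells per library met both the fibroblast and the macrophage gate. Median depth in smooth muscle cells and fibroblasts was 9534 to 15485.5 UMIs per cell, and pairs of libraries shared 29 to 34 cell barcodes. Markers were then summed without the genes that the gates use. The 7 remaining smooth muscle markers summed to 59119 to 68398 CPM (UMIs scaled to a class total of 1000000) in smooth muscle cells and 1457 to 4374 CPM in fibroblasts, and the 7 remaining fibroblast markers to 14075 to 38471 CPM in fibroblasts and 1790 to 1963 CPM in smooth muscle cells. The 6 remaining macrophage markers summed to 7901 CPM in macrophages of CNC_AngII, and to 85.8 CPM in smooth muscle cells and 66.9 CPM in fibroblasts of that library, against 1.12 to 1.96 and 2.90 to 8.95 CPM in the SHF libraries.

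Levels below are UMIs summed over the cells of a class, as CPM of all UMIs of that class. The UMI counts are per transcript end and carry no scaling for gene length, so levels are compared between classes and libraries and not between genes. A log2 ratio is taken after 1 CPM is added to both levels, and its interval is for the ratio without that addition. A gene counts as past 2-fold when its log2 ratio reached 1 in size and its mean level was at least 10 CPM.

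The classes differed most in Tsc22d3, Fkbp5 and the metallothioneins, which were higher in fibroblasts than in smooth muscle cells in all 3 libraries. Sgk1 and Zbtb16 were on the other side, higher in smooth muscle cells in all 3. Fibroblasts over smooth muscle cells, 5 of 8 genes with enough UMIs were past 2-fold in SHF_Baseline, 5 of 8 in SHF_AngII and 4 of 8 in CNC_AngII. Of all genes 21.5% were in SHF_Baseline (13.9% higher and 7.58% lower), 22.4% in SHF_AngII (12.8% and 9.58%) and 21.4% in CNC_AngII (12.1% and 9.23%). Nr3c2 was below the minimum mean level in every such comparison.

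**Figure D1:**
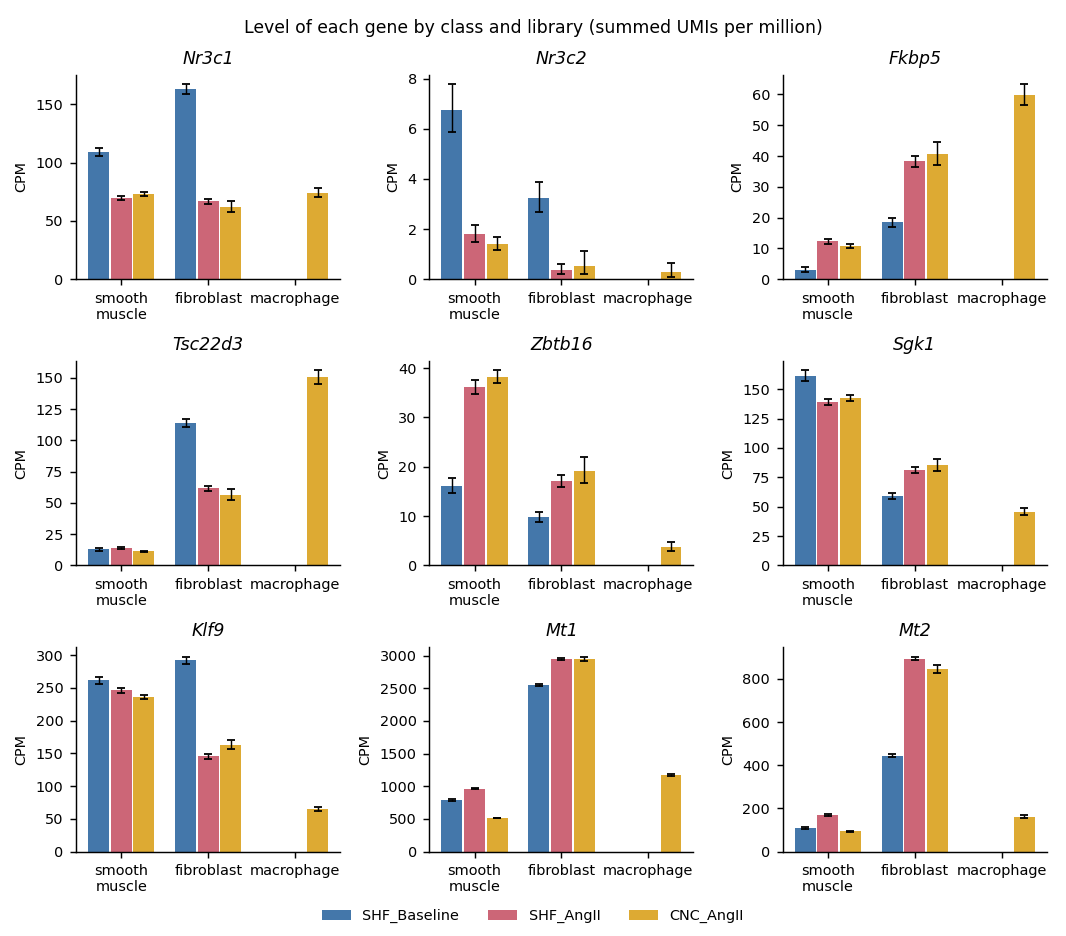
Level of each of the 9 genes in CPM (bars, axis from 0) by class and library with exact Poisson intervals for the summed UMIs; macrophages are drawn for CNC_AngII only. Within each library Tsc22d3, Fkbp5, Mt1 and Mt2 are lowest in smooth muscle cells, while Sgk1, Zbtb16 and Nr3c2 are highest there.

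Of the receptor genes, Nr3c1 stood at 109, 69.8 and 73.0 CPM in smooth muscle cells of SHF_Baseline, SHF_AngII and CNC_AngII, and at 163, 66.9 and 62.1 CPM in fibroblasts. It was thus higher in fibroblasts at baseline (log2 ratio 0.58, interval 0.52 to 0.64), whereas after AngII the classes differed by -0.06 and -0.23. In macrophages it was 74.2 CPM (interval 70.6 to 78.0), which overlaps the 71.3 to 74.7 CPM of the smooth muscle cells of the same library.

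Nr3c2 was scarce, and its exons overlap those of Gm10649 on the other strand; whether the counting used strand is not given in the sources used here. It stood at 6.77, 1.80 and 1.41 CPM in smooth muscle cells and 3.25, 0.379 and 0.524 CPM in fibroblasts, and at 0.289 CPM in macrophages. At a fixed depth of 5000 UMIs per cell, which leaves out shallower cells, 2.98% of smooth muscle cells of SHF_Baseline had a UMI of it (exact binomial interval 2.31 to 3.78%), and 8.28% had one at full depth. The share was 1.55% in baseline fibroblasts and 0.118% in macrophages.

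Among the hormone-responsive genes, Tsc22d3, which encodes a leucine zipper protein that restrains inflammatory signalling, separated the classes furthest. It was 12.9, 14.1 and 11.2 CPM in smooth muscle cells, 114, 61.6 and 56.5 CPM in fibroblasts, and 151 CPM in macrophages. The intervals of the smooth muscle values of SHF_Baseline and SHF_AngII overlap. Fibroblasts exceeded smooth muscle cells by a log2 ratio of 3.05 at baseline, 2.06 in SHF_AngII and 2.24 in CNC_AngII, and macrophages exceeded smooth muscle cells by 3.63 and fibroblasts by 1.40. The part of RNA from other cells in the smooth muscle level was not tested, but its size can be set beside other genes. In smooth muscle cells Tsc22d3 was at 11.3%, 22.8% and 19.8% of its level in fibroblasts, while the fibroblast genes Dpt, Lum, Pi16 and Dcn were at 0.536 to 4.35%, 0.885 to 5.56% and 0.398 to 0.798%. These are some of the 7 fibroblast markers outside the gates, and others of them held larger shares. All 7 summed to 1790, 1963 and 1799 CPM in smooth muscle cells and 38471, 15931 and 14075 CPM in fibroblasts. In CNC_AngII, smooth muscle cells held Tsc22d3 at 7.44% of the macrophage level and the macrophage genes C1qa, C1qb, C1qc and Csf1r at 1.01 to 1.25%.

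Fkbp5 followed the same order of classes. It was 3.11, 12.3 and 10.8 CPM in smooth muscle cells, 18.5, 38.3 and 40.6 CPM in fibroblasts and 59.9 CPM in macrophages. At 5000 UMIs per cell, a UMI of Fkbp5 was found in 1.26%, 5.77% and 4.89% of smooth muscle cells, 8.72%, 17.1% and 19.3% of fibroblasts and 23.7% of macrophages. At full depth these shares were 3.94%, 14.4% and 13.6%, then 14.4%, 42.3% and 39.2%, and 43.1%. Its level in smooth muscle cells was 16.9%, 32.1% and 26.5% of that in fibroblasts, to be read beside the percentages given for Dpt, Lum, Pi16 and Dcn.

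Zbtb16, a zinc finger repressor, and Sgk1, a kinase known for its control of ion transport, had the opposite order. Zbtb16 was 16.1, 36.2 and 38.3 CPM in smooth muscle cells, 9.87, 17.1 and 19.2 CPM in fibroblasts and 3.80 CPM in macrophages. Sgk1 was 161, 139 and 143 CPM in smooth muscle cells, 59.2, 81.2 and 85.4 CPM in fibroblasts and 45.8 CPM in macrophages. Within each library both genes were higher in smooth muscle cells than in fibroblasts, and in CNC_AngII macrophages were lowest. Across libraries Sgk1 kept this order, while the interval of Zbtb16 in baseline smooth muscle cells overlapped those of both fibroblast groups after AngII. Macrophages over smooth muscle cells, Zbtb16 had a log2 ratio of -3.03 (interval -3.67 to -3.01, for the ratio of -3.33 without the addition) and Sgk1 one of -1.62.

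Klf9, a Krüppel-like transcription factor, did not keep 1 order. It was 261, 246 and 236 CPM in smooth muscle cells, 292, 145 and 164 CPM in fibroblasts and 64.8 CPM in macrophages. At baseline fibroblasts exceeded smooth muscle cells by a log2 ratio of 0.16, a direction that turned to -0.092 under TMM scaling, and after AngII they were lower by -0.76 and -0.53.

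Mt1 and Mt2 were highest in fibroblasts. Mt1 was 790, 959 and 514 CPM in smooth muscle cells, 2545, 2949 and 2952 CPM in fibroblasts and 1172 CPM in macrophages. Mt2 was 109, 169 and 94.8 CPM in smooth muscle cells, 445, 894 and 845 CPM in fibroblasts and 162 CPM in macrophages. Within a class the balance of the pair also differed: there were 13.8, 17.6 and 18.4 Mt2 UMIs per 100 Mt1 UMIs in smooth muscle cells, 17.5, 30.3 and 28.6 in fibroblasts and 13.9 in macrophages. The coding sequences of Mt1 and Mt2 are similar, and how reads that fit both were counted is not given in the sources used here, nor is strand for Mt2, whose exons overlap those of Gm45774 on the other strand. In CNC_AngII, 6 of 8 genes were past 2-fold in macrophages over smooth muscle cells and 5 of 8 over fibroblasts, beside 41.9% of all genes (23.7% higher and 18.2% lower) and 35.7% (18.2% and 17.5%).

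The question of what AngII infusion changes was addressed within the SHF lineage by SHF_AngII over SHF_Baseline. Fkbp5 and Zbtb16 were higher after AngII in both classes, Nr3c1 and Nr3c2 were lower in both, and Mt2 was higher in both. Klf9 and Tsc22d3 were lower in fibroblasts. Of the genes with enough UMIs, 1 of 7 was past 2-fold in smooth muscle cells, where 6.38% of all genes were (2.86% higher and 3.53% lower), and 4 of 8 in fibroblasts, where 15.3% were (4.64% higher and 10.7% lower). The median log2 ratio over all genes was -0.10 in smooth muscle cells and -0.21 in fibroblasts. TMM scaling shifted these medians by 0.17 and 0.27, and the share of higher genes among those past 2-fold went from 44.7% to 65.6% in smooth muscle cells and from 30.3% to 58.6% in fibroblasts, so ratios near these shifts have no firm direction.

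**Figure D2:**
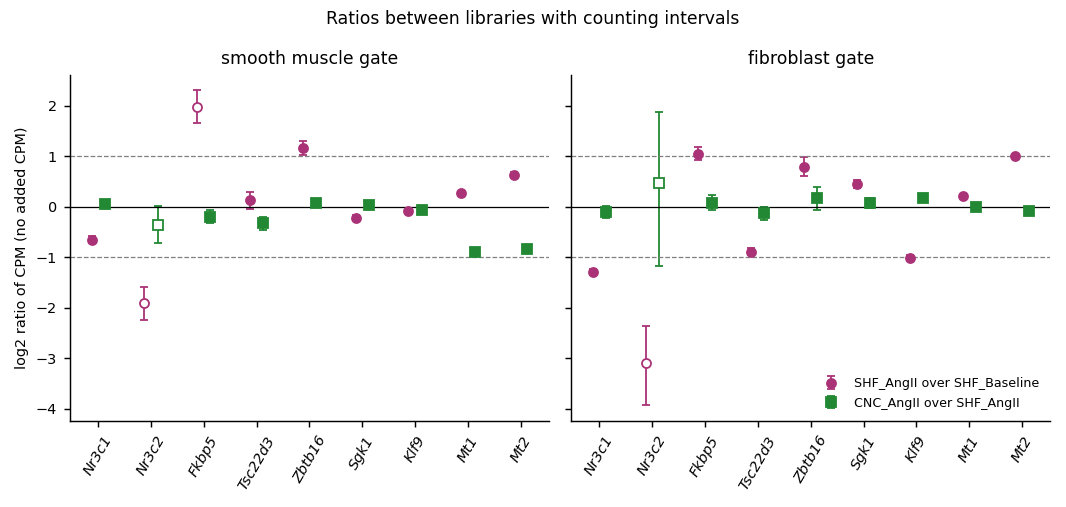
Log2 ratio of CPM without added CPM (points, with conditional binomial intervals) of the 9 genes between libraries, in smooth muscle cells (left) and fibroblasts (right); dashed lines mark 2-fold and open symbols a mean under 10 CPM. Among genes of at least 10 CPM, the CNC_AngII over SHF_AngII ratios farthest from 0 are Mt1 (-0.90), Mt2 (-0.83) and Tsc22d3 (-0.33) in smooth muscle cells; Nr3c2 has wide intervals, from -1.16 to 1.88 in fibroblasts.

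In smooth muscle cells Zbtb16 was the gene past 2-fold, at 16.1 CPM before and 36.2 CPM after AngII (log2 ratio 1.12, interval 1.02 to 1.31). It was 0.98 when smooth muscle cells with any UMI of the fibroblast genes Dcn, Lum or Dpt were left out. Fkbp5 differed more, from 3.11 to 12.3 CPM (1.98 without the addition, interval 1.67 to 2.31), but its mean level was under 10 CPM. Nr3c1 was lower by -0.64 (interval -0.71 to -0.58) and Nr3c2 by -1.91 without the addition (interval -2.25 to -1.58). Mt2 was higher by 0.63 and Mt1 by 0.28, and they were -0.044 and -0.049 under a stricter filter (no fewer than 1500 genes, no more than 5% mitochondrial), which left 117 smooth muscle cells of SHF_Baseline and 1591 of SHF_AngII. Under that filter Fkbp5 was 1.005, against 1.69 with 1 CPM added in all kept cells, and Sgk1 was -0.053. Tsc22d3 was then -0.70 and Klf9 -0.45, so the smooth muscle ratio of Tsc22d3 has no stable direction. Sgk1 (-0.21), Klf9 (-0.09) and Tsc22d3 (0.12, interval -0.04 to 0.30) were no more than 0.21 in size without it, near the scaling shift of 0.17, and Klf9 was 0.090 under TMM scaling.

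In fibroblasts the pair of Mt2 (445 to 894 CPM, log2 ratio 1.01, interval 0.98 to 1.03) and Fkbp5 (18.5 to 38.3 CPM, 1.01, interval 0.93 to 1.18) was at the 2-fold line. Nr3c1 was past it on the lower side, at 163 CPM before and 66.9 CPM after (-1.27, interval -1.35 to -1.22). Klf9 was at the line, at 292 and 145 CPM (-1.002, interval -1.05 to -0.96). Tsc22d3 was lower by -0.88 and Nr3c2 by -3.10 without the addition (interval -3.92 to -2.36). Zbtb16 was higher by 0.74, Sgk1 by 0.45 and Mt1 by 0.21. Under TMM scaling these became 1.28 for Mt2 and for Fkbp5, -0.9996 for Nr3c1, -0.72 for Klf9, -0.60 for Tsc22d3, 0.996 for Zbtb16, 0.73 for Sgk1 and 0.49 for Mt1, so each kept its direction. Median depth of fibroblasts was 9534 UMIs at baseline and 15485.5 after AngII. In the third of SHF_AngII fibroblasts with fewest UMIs (median 8475.5), Klf9 was 202 CPM and Tsc22d3 84.8 CPM. In the third with most they were 125 and 48.1 CPM. The part of depth in the ratios to baseline was not tested.

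The deposited baseline file was made differently from both AngII files: it lists 18760 genes and they list 32285. Genes that span more of the genome also had lower ratios to baseline. In fibroblasts genes were put in 4 bins of equal size by their span in RefSeq, and the median log2 ratio was 0.12 in the shortest bin and -0.53 in the longest, and in smooth muscle cells it was 0.11 and -0.31. The longest bin held Nr3c1, Nr3c2, Fkbp5, Tsc22d3, Zbtb16 and Sgk1, and the shortest held Mt1 and Mt2. Nr3c1 and Nr3c2 were thus below the median of their own bin in both classes, and Fkbp5, Zbtb16, Sgk1, Mt1 and Mt2 were above it in both. Klf9, in the bin next to the longest, and Tsc22d3 were above it in smooth muscle cells and below it in fibroblasts. Between both AngII files, the bins had medians of -0.02 to 0.04 in smooth muscle cells and -0.0049 to 0.02 in fibroblasts. Cell markers differed as well: in SHF fibroblasts the 7 fibroblast markers summed to 38471 CPM at baseline and 15931 CPM after AngII, and the 7 smooth muscle markers to 1457 and 4374 CPM. The part of the difference in preparation and of these markers in the ratios was not tested.

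**Figure D3:**
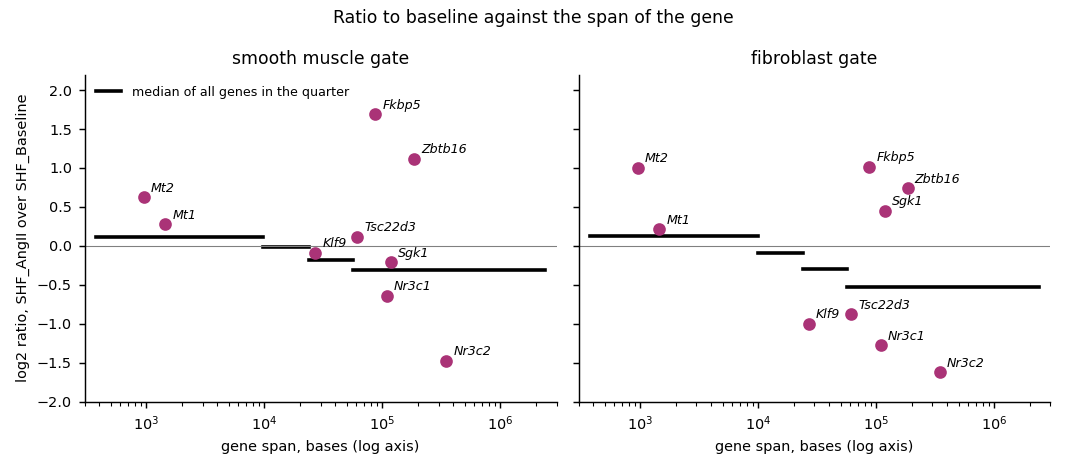
Log2 ratio of SHF_AngII over SHF_Baseline (1 CPM added) of the 9 genes against the span of the gene in bases on a log axis; black lines are medians of all genes in 4 bins of span. The medians run from 0.11 to -0.31 in smooth muscle cells and from 0.12 to -0.53 in fibroblasts, with Fkbp5 and Zbtb16 above the line and Nr3c1 below it.

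Other genes of the pathways were read from lists. The counts below stand beside 2.86% of all genes past 2-fold higher and 3.53% lower in smooth muscle cells, and 4.64% higher and 10.7% lower in fibroblasts. Among 19 further glucocorticoid targets with enough UMIs in smooth muscle cells, 1 was past 2-fold higher and 5 lower after AngII (median -0.43, beside -0.10 for all genes). Serpina3n, a secreted protease inhibitor, was at 20.8 CPM against 1.59 CPM, while Rgs2 (-1.37), Zfp36 (-1.23) and Txnip (-1.06) were among the lower ones. In fibroblasts 2 of 18 were higher and 6 lower (median -0.26, beside -0.21). Lcn2, an iron-carrier-binding protein, was at 98.3 CPM against 2.66 CPM and Serpina3n at 695 against 83.2 CPM, while Txnip (-2.43) and Glul (-1.80), which encodes glutamine synthetase, were lower. The smooth muscle levels of Serpina3n are to be read beside these fibroblast levels and the percentages given for Dpt, Lum, Pi16 and Dcn. The part of fibroblast RNA in them was not tested.

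Immediate early and heat-shock genes that tissue digestion can raise were also lower after AngII, none of 17 higher and 5 lower in smooth muscle cells and none higher and 6 lower in fibroblasts (medians -0.74 and -0.87, beside -0.10 and -0.21 for all genes). Hspa1a was at 137 against 396 CPM in smooth muscle cells and 218 against 790 CPM in fibroblasts. Zfp36, lower in both classes, is an immediate early gene as well, and the part of tissue handling in these ratios was not tested.

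Of the genes that set hormone supply, Hsd11b1, whose enzyme regenerates active glucocorticoid inside cells, was a fibroblast gene, at 144 CPM before and 137 CPM after AngII, against 1.39 and 2.75 CPM in smooth muscle cells. Hsd11b2, whose enzyme inactivates glucocorticoid, was at 3.69 and 6.86 CPM in fibroblasts. Among 16 receptor chaperones and coregulators none was past 2-fold in smooth muscle cells, and in fibroblasts the coactivators Ncoa1, Ncoa2, Ncoa3 and Ep300 were lower, from -1.09 to -1.29, which is 4 of 16. Of all genes in the longest bin of span 19.4% were lower in fibroblasts, and TMM scaling shifts such values by 0.27.

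On the list of mineralocorticoid targets, for which no count is given here, Pgf, the gene of placental growth factor, was higher in smooth muscle cells (37.8 against 3.89 CPM). In fibroblasts Lcn2, which is on this list too, was higher, and Edn1, the gene of the vasoconstrictor endothelin, was lower (-1.15). Of the zinc genes, the transporter gene Slc39a13 was higher in smooth muscle cells (1.10), 1 of 12, and in fibroblasts Slc39a14 was higher (1.41) and Slc39a10 lower (-1.04), of 14. Mtf1 and Hsd11b2 were named after their values were seen. Mtf1, the metal-sensing activator of metallothionein genes, was at 11.7 and 12.3 CPM in smooth muscle cells and 11.6 and 10.0 CPM in fibroblasts. Of the interleukin 6 axis, Socs3, a feedback inhibitor of cytokine signalling, was lower in smooth muscle cells (-1.31), 1 of 5, and in fibroblasts Socs3 (-1.89) and Lifr (-1.34) were lower and the cytokine gene Lif higher (1.93), of 7.

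The question of whether lineages differ after AngII was addressed by CNC_AngII over SHF_AngII. This comparison shares the SHF_AngII library with the one before. None of 8 genes was past 2-fold in smooth muscle cells or in fibroblasts, where 0.798% (0.443% higher and 0.355% lower) and 0.61% (0.457% and 0.152%) of all genes were. The largest ratios belonged to the metallothioneins in smooth muscle cells, with Mt1 at 514 against 959 CPM (-0.90, interval -0.92 to -0.88) and Mt2 at 94.8 against 169 CPM (-0.83, interval -0.87 to -0.79). In fibroblasts the ratio of Mt1 was 0.00 (interval -0.02 to 0.02) and that of Mt2 -0.08. Mt1 was past 2-fold in smooth muscle cells when the per-cell shares were averaged (-1.01) or cells were thinned to 5000 UMIs (-1.04).

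The other genes were close between the lineages. In smooth muscle cells Tsc22d3 was lower in CNC_AngII by -0.30 and Fkbp5 by -0.18, and Nr3c1, Zbtb16, Sgk1 and Klf9 lay between -0.06 and 0.08. In fibroblasts the 6 genes other than the metallothioneins and Nr3c2 lay between -0.12 and 0.17. Tsc22d3 in smooth muscle cells turned to 0.036 without cells that held a UMI of Dcn, Lum or Dpt. Leaving them out kept 57.6% of the smooth muscle cells of SHF_AngII and 87.0% of those of CNC_AngII. Then Mt1 was 779 CPM in SHF_AngII and 482 CPM in CNC_AngII, and its ratio was -0.69. Of the pathway lists, Serpina3n was lower in CNC_AngII smooth muscle cells (2.01 against 20.8 CPM, -2.86) and Hsd11b1 in CNC_AngII fibroblasts (63.0 against 137 CPM, -1.11). The fibroblast genes Dcn (20.3 against 174 CPM), Lum (8.83 against 75.3 CPM), Dpt (2.76 against 10.7 CPM) and Pi16 (5.34 against 11.9 CPM) were also lower in CNC_AngII smooth muscle cells. The part of fibroblast RNA in the ratio of Serpina3n was not tested. None of the listed genes was past 2-fold higher in either class.

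Mt1 varied widely among cells of 1 class. With cells thinned to 5000 UMIs, smooth muscle cells had a median of 2 Mt1 UMIs in SHF_Baseline and in SHF_AngII and of 1 in CNC_AngII, whereas the 99th percentile was 26.9, 54 and 22 UMIs. Cells with at least 20 Mt1 UMIs were 2.17%, 6.47% and 1.33% of smooth muscle cells. In fibroblasts the medians were 5, 10 and 9 UMIs and the shares at 20 or more were 22.6%, 28.5% and 29.8%. The 459 smooth muscle cells of SHF_AngII with most Mt1, of 4590, held 54.1% of its Mt1 UMIs, and the 222 of SHF_Baseline with most, of 2214, held 42.0%.

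**Figure D4:**
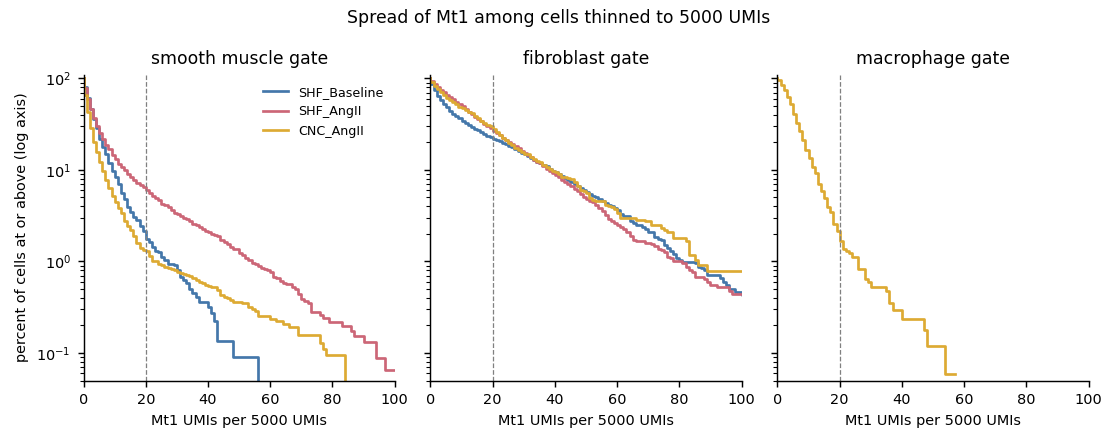
Percent of cells (log axis) with at least the number of Mt1 UMIs on the x axis, after thinning each cell to 5000 UMIs, for 3 classes; the dashed line marks 20 UMIs. At 20 UMIs the SHF_AngII curve of smooth muscle cells stands at 6.47%, above 2.17% and 1.33% for the others, and the fibroblast curves stand at 22.6% to 29.8%.

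The smooth muscle cells of SHF_AngII with at least 20 Mt1 UMIs, 297 in number, held other genes at other levels too. Against the remaining cells, Fkbp5 was 50.3 against 10.3 CPM, Zbtb16 73.1 against 34.3 CPM, Klf9 452 against 235 CPM and Tsc22d3 23.1 against 13.6 CPM. Sgk1 was 118 against 140 CPM. Since the cells were chosen by Mt1, these values are a description. The fibroblast genes Lum (557 against 49.8 CPM), Dcn (1050 against 127 CPM) and Dpt (63.3 against 7.99 CPM) were also higher in them, Acta2 was 22438 against 36331 CPM, and their median depth was 10310 against 13700 UMIs. The part of fibroblast RNA in these values was not tested. In the other libraries Fkbp5 was also higher in such cells, at 9.47 against 2.96 CPM in the 48 of SHF_Baseline and 31.0 against 10.5 CPM in the 84 of CNC_AngII. Klf9 was 407 against 258 CPM and 295 against 235 CPM, and Zbtb16 20.5 against 16.1 CPM and 51.6 against 38.1 CPM. Lum (325 against 79.9 CPM and 110 against 7.57 CPM) and Dcn (1007 against 293 CPM and 191 against 18.2 CPM) were higher in them as well. The part of fibroblast RNA was not tested there either. Tsc22d3 was 15.8 against 12.8 CPM in SHF_Baseline and 10.3 against 11.2 CPM in CNC_AngII. Sgk1 was 224 against 160 CPM in SHF_Baseline and 125 against 143 CPM in CNC_AngII. No intervals were taken for these levels in 48 and 84 cells, so no direction is read from Tsc22d3, Sgk1 or Zbtb16 there.

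Across single cells Mt1 and Mt2 went together. Pearson's r of their log values was 0.50, 0.73 and 0.62 over the 2259, 4649 and 6385 smooth muscle cells, 0.67, 0.81 and 0.81 over the 3939, 2640 and 842 fibroblasts and 0.57 over the 1764 macrophages. Cells of a library share its preparation, and depth enters both genes. Mt2 was also the gene most like Mt1 of 7071 genes in smooth muscle cells and of 6912 in fibroblasts by mean r over the 3 libraries. The next in smooth muscle cells were Socs3, Gadd45g, Junb and Zfp36 (mean r of 0.24 to 0.29), and in fibroblasts Cebpb, Zfp36, Gadd45g and Il6 (0.36 to 0.45). For Tsc22d3 the highest mean r was 0.13 in smooth muscle cells, with Apoe, and 0.18 in fibroblasts, with Pdgfrl. Between Fkbp5 and Mt1, r was 0.038, 0.25 and 0.13 in smooth muscle cells of SHF_Baseline, SHF_AngII and CNC_AngII, -0.0039, 0.098 and 0.066 in fibroblasts and 0.0022 in macrophages.

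Subsets of a class were compared after thinning to 5000 UMIs, so that the cut was made at 1 depth. Igfbp2 and Tnnt2 were chosen as cut genes with earlier results known. In SHF_AngII the 2656 smooth muscle cells with a UMI of Igfbp2, an insulin-like growth factor binding protein gene, held 685 CPM of Mt1, and the 1934 without held 1675 CPM (log2 ratio -1.29, interval -1.33 to -1.25). Mt2 (-1.08), Fkbp5 (-1.33) and Tsc22d3 (-0.81) were lower in the same cells. In CNC_AngII these ratios were -0.69, -0.56, -0.52 and -0.54, and in SHF_Baseline -0.37 for Mt1 and -0.32 for Mt2. Fkbp5 (0.19, interval -1.19 to 1.46) and Tsc22d3 (0.28, interval -0.39 to 0.94) were not lower in SHF_Baseline, and both intervals include 0. The cells of SHF_AngII with a UMI of Tnnt2, a troponin gene, stood the other way, with Mt1 at 1487 against 802 CPM (0.89, interval 0.86 to 0.93) and Fkbp5 at 17.1 against 9.73 CPM. In SHF_Baseline and CNC_AngII the Tnnt2 ratios of Mt1 were smaller, 0.17 and 0.52. Those of Fkbp5 were -0.06 (interval -1.13 to 1.01) and 0.01 (interval -0.47 to 0.47). Mt1 was also higher in shallow smooth muscle cells of SHF_AngII, at 1517 CPM in the third with fewest UMIs and 708 CPM in the third with most.

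**Figure D5:**
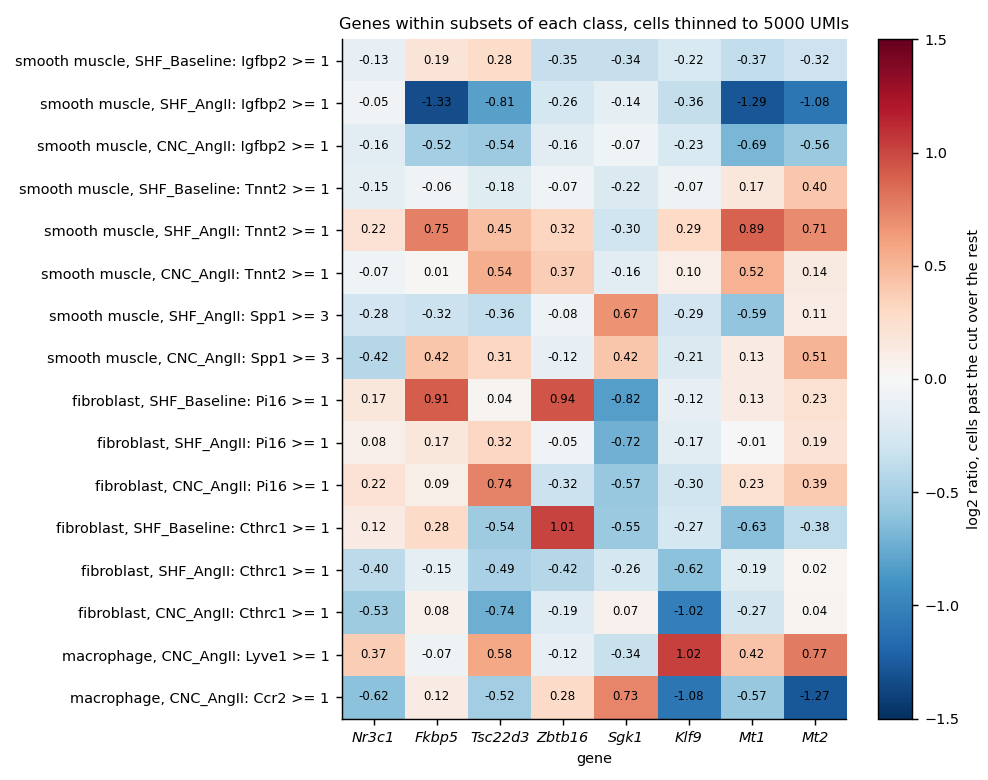
Log2 ratio (colour and number, 1 CPM added) of 8 genes in cells past a cut on 1 marker gene over the other cells of the class, with cells thinned to 5000 UMIs. Mt1, Mt2 and Fkbp5 are lower in Igfbp2-positive smooth muscle cells of SHF_AngII, and Klf9 is higher in Lyve1-positive and lower in Ccr2-positive macrophages.

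Fibroblasts with a UMI of Cthrc1, a gene of matrix-producing fibroblasts, held less Klf9 and Tsc22d3. In SHF_AngII Klf9 was 128 against 197 CPM (-0.62, interval -0.75 to -0.49) and Tsc22d3 56.5 against 79.5 CPM (-0.49), and in CNC_AngII they were lower by -1.02 and -0.74. In SHF_Baseline Tsc22d3 was lower by -0.54 and Klf9 by -0.27. Both genes also differed with fibroblast depth. From the third with fewest UMIs to the third with most, Klf9 went from 202 to 125 CPM in SHF_AngII and from 245 to 137 CPM in CNC_AngII. Tsc22d3 went from 84.8 to 48.1 CPM and from 90.6 to 44.3 CPM. In SHF_Baseline Klf9 went the other way, from 242 to 295 CPM, and Tsc22d3 from 122 to 112 CPM. The part of depth in the Cthrc1 ratios was not tested. Sgk1 was lower in fibroblasts with a UMI of Pi16, a gene of adventitial fibroblasts, in all 3 libraries (-0.82, -0.72 and -0.57). Fkbp5 was higher in Pi16-positive fibroblasts at baseline, at 20.7 against 10.6 CPM (0.91, interval 0.43 to 1.56), and differed by 0.17 and 0.09 after AngII.

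Macrophages of CNC_AngII fell into subsets by Lyve1, a gene of resident vessel-wall macrophages, and Ccr2, a receptor gene of monocyte-derived cells. The 1245 Lyve1-positive cells held 77.1 CPM of Klf9 and the 448 others 37.5 CPM (1.02, interval 0.70 to 1.39), and Mt2 (0.77), Tsc22d3 (0.58), Mt1 (0.42) and Nr3c1 (0.37) were higher in them as well. The 353 Ccr2-positive cells stood the other way for Mt2 (-1.27), Klf9 (-1.08), Nr3c1 (-0.62), Mt1 (-0.57) and Tsc22d3 (-0.52). Sgk1 was higher in Ccr2-positive cells (0.73) and lower in Lyve1-positive ones (-0.34). Fkbp5 was close in both splits, with -0.07 for Lyve1 and 0.12 for Ccr2, and both of its intervals include 0. The splits are of the same cells and are not independent.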

How the data were processed

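Aortic cells went through droplet capture and 3′ sequencing (10x Chromium), per the labels' protocols. The authors deposited raw UMI counts for each gene in each barcode. fastp, STAR 2.5, HTSeq 0.6.1 and mm10 are named in the submitters' processing notes, without roles. Of the gene names shared by the 3 files, 518 were matched by an unambiguous synonym, and 13 repeated names were left out. Barcodes needed 500 or more detected genes and no more than 10% mitochondrial UMIs, and 192 to 279 doublets per library, marked by Scrublet in scanpy 1.11.5, were left out. Counts were summed per class and library and divided by class totals of 11453314 to 95893101 UMIs (macrophages of CNC_AngII: 20771464). Intervals are exact Poisson for levels, conditional binomial for ratios and Clopper-Pearson for shares. Cells thinned to 5000 UMIs were drawn without replacement. TMM factors and ratio calls were tested on simulated Poisson counts. That simulation held no cell classes, RNA from other cells, difference in annotation or spread between libraries, so it covers counting error only. The genes, lists and cut genes were chosen with earlier results of these data known. Beyond the 9 genes, the rule named up to 4 genes per list and comparison with the largest ratios and the 5 genes most like Mt1 or Tsc22d3. Leaving out smooth muscle cells with fibroblast UMIs and thinning before subset cuts were chosen after seeing the data, and the bins of gene span, Mt1-rich cells and promoter windows were described after it too. Counts over the mineralocorticoid list are not reported here.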

Additional observations from a re-analysis of the deposited data

Results flagged for a closer look

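Sgk1 had ratios of opposite sign in the 2 classes after AngII, of which the smooth muscle one has no firm direction. Its log2 ratio of SHF_AngII over SHF_Baseline was -0.21 in smooth muscle cells (161 to 139 CPM) and 0.45 in fibroblasts (59.2 to 81.2 CPM), each with 1 library on either side. The difference was not tested. Under TMM scaling the smooth muscle value was -0.04 and the fibroblast value 0.73. The smooth muscle value of -0.21 is near the scaling shift of 0.17, and it was -0.053 under the stricter cell filter. In both classes Sgk1 was above the median of its bin of gene span.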

How the results depend on the processing

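No paired analysis was possible because each group had 1 library. With 10 other settings for each ratio, 810 recomputed ratios of the 9 genes included 20 of opposite sign to the reported value. In 16 of these the reported ratio was under 0.1 in size or had an interval that reached 0, with Tsc22d3 in smooth muscle cells (0.12 to -0.70 for SHF_AngII over SHF_Baseline, stricter cell filter) the farthest apart. The other 4 were Mt1 (-0.049) and Mt2 (-0.044) of SHF_AngII over SHF_Baseline in smooth muscle cells under the stricter cell filter, and Klf9 of fibroblasts over smooth muscle cells in SHF_Baseline under that filter (-0.032) and under TMM scaling (-0.092). Apart from these 4, 313 of the 810 fell outside the counting interval of the reported ratio and 493 within it. Of 106 recomputed counts and percentages, 95 stayed within 1.5 times. For SHF_AngII over SHF_Baseline in smooth muscle cells, 0 genes were past 2-fold with 10 CPM added, and 2.23% of all genes were lower under TMM scaling. In fibroblasts, 2 were past 2-fold under the stricter cell filter, 2 under TMM scaling, 2 with per-cell shares and 1 with 10 CPM added, while 7.88% of all genes were higher and 5.56% lower under TMM scaling. For CNC_AngII over SHF_AngII in smooth muscle cells, 1 was past 2-fold with per-cell shares and 1 with thinning to 5000 UMIs, and 0.0824% of genes of at least 50 CPM were higher. Without smooth muscle cells holding fibroblast UMIs, 0 genes were past 2-fold for SHF_AngII over SHF_Baseline, and Tsc22d3 of CNC_AngII over SHF_AngII turned to 0.036, 1 of 54 such ratios. The causes were not tested. With 1 library per group, infusion, library preparation and mouse cannot be told apart, and Nr3c2, with 0.289 to 6.77 CPM, is limited by depth.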
